A study of Homo sapiens with 6 samples.

Results

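Transcripts of platelet-derived growth factor (PDGF) receptors, the receptor KIT and their ligands were followed from human embryonic stem cells (hESC) to sorted mesodermal progenitors. The set comprised 8 genes chosen by name, namely the receptors PDGFRA, PDGFRB and KIT, the ligands PDGFA, PDGFB, PDGFC and PDGFD, and the KIT ligand KITLG. All 8 were among the 19775 genes measured, and 20 of the 54675 probe sets of the array were annotated to one of them and to no other gene. The hESC were undifferentiated cells of H9, an established human line. The progenitors were made from H9 cells with the inducers BMP4, activin A, VEGF and FGF2 in Stemline II. On day 3.5 cells that carried CD56 and lacked CD326 were sorted. Each group had 3 arrays, and all 6 derive from this 1 cell line. No unsorted cells of day 3.5 were measured, so the sort and the differentiation cannot be told apart. The arrays measured bulk RNA, in which a change in the share of cells that express a gene and a change in RNA per cell cannot be told apart.

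PDGFRA, PDGFRB and KIT belong to the same class of receptor tyrosine kinases, with an extracellular part of immunoglobulin-like domains and a kinase split by an insert. Their ligands are dimers that bring receptor chains together, after which the chains phosphorylate each other and recruit adaptors, phosphatidylinositol 3-kinase, phospholipase C gamma and SRC family kinases. The alpha receptor binds PDGF chains A, B and C, and the beta receptor binds chains B and D. PDGF-C and PDGF-D are secreted in a latent form that proteases must cut. KIT answers to KITLG, also called stem cell factor, and is known from blood stem cells, mast cells, melanocytes and germ cells. PDGFRA is a marker of early mesoderm, and PDGFRB of mural and other mesenchymal cells.

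PDGFRA and KIT lie next to each other on chromosome 4 among protein-coding genes and moved in opposite directions in these cells. The 250 bases before their annotated starts are therefore shown with those of PDGFRB and KITLG, which rose like PDGFRA. The RefSeq promoter table (GRCh38.p14) held windows for 6 of the 8 genes, and it listed PDGFRA with 2 starts. Bases run 5′ to 3′ on the strand of the gene. Capitals mark exact matches, on either strand, to CCAAT, to the GC box core GGGCGG, to the box TATAAA, or to the forms AGATAA and also AGATAG of the GATA-factor motif. No marked match overlaps one of another motif.
PDGFRA, chr4:54229043-54229292, plus strand: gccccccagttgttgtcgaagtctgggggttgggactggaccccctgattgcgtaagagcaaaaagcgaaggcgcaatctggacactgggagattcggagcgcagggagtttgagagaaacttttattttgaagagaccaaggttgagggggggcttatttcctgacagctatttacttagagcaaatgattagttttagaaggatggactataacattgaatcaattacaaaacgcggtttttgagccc
PDGFRA, chr4:54233710-54233959, plus strand: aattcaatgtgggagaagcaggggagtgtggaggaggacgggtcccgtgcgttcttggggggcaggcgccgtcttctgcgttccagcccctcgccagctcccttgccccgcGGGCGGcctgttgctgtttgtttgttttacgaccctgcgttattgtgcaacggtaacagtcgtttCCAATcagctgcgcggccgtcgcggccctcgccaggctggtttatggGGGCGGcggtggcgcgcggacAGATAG
KIT, chr4:54657707-54657956, plus strand: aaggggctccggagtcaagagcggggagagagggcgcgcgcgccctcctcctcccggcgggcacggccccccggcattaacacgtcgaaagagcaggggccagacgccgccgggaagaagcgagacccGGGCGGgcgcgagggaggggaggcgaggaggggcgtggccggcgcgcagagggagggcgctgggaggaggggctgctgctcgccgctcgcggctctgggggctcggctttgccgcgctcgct
PDGFRB, chr5:150155846-150156095, minus strand: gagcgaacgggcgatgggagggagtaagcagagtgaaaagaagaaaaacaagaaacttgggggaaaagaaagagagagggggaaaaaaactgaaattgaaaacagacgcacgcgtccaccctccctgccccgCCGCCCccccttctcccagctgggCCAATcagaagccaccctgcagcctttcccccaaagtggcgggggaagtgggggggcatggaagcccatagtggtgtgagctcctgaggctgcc
KITLG, chr12:88580472-88580721, minus strand: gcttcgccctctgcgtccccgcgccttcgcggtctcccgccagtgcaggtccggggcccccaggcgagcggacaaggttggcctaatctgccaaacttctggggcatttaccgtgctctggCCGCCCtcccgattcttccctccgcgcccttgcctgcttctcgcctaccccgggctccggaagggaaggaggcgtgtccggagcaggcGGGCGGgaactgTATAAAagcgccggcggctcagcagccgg

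The first PDGFRA window held none of these motifs, and 46.8% of its bases were G or C. The second PDGFRA window held 1 CCAAT, 2 GGGCGG and 1 AGATAG, at 64% G or C. The KIT window was the richest of the 5 in G and C, at 76.4%, and held 1 GGGCGG. The PDGFRB window held 1 CCAAT and 1 GGGCGG at 58.4% G or C, and the KITLG window 2 GGGCGG and 1 TATAAA at 69.2%. Over 35116 promoter windows of the same length, CCAAT was found in 32.0%, GGGCGG in 42.6%, TATAAA in 10.7%, AGATAA in 9.17% and AGATAG in 5.66%. A match describes the letters of the window, and no binding was measured in these samples.

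Each deposited value is an intensity of a probe set, and medians were 31.0 to 31.2 on progenitor arrays and 33.1 to 36.1 on hESC arrays. Levels are given as log2(intensity + 16) after quantile normalization, and a log2 change is progenitors minus hESC on that scale, which understates changes of dim probe sets. Within a group, array profiles correlated across genes at r = 0.991 to 0.997, where genes do not count as replicates. The transcripts of the sort antigens went with the labels, with a log2 change of 3.46 for NCAM1 (CD56) and -2.33 for EPCAM (CD326). Markers of nascent mesoderm rose in the progenitors in 6 of 6 genes (TBXT, MIXL1, EOMES, MESP1, APLNR and HAND1), and pluripotency markers fell in 6 of the 6 measured. Progenitor array 1 stood apart from the other progenitor arrays, with 208 and 180 genes more than 2-fold apart from arrays 2 and 3, against 7 genes between arrays 2 and 3 and 46 to 146 between hESC arrays. Values without it are given where a call or a sign differs.

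Of the 8 genes, PDGFRA, PDGFRB and KITLG rose in the progenitors, KIT, PDGFA and PDGFB fell, and PDGFC and PDGFD did not pass the test (limma, adjusted p under 0.05 over all genes). Among all genes 26.7% rose and 21.2% fell, together 47.9%, so that a call by itself does not set these genes apart. The groups did not overlap in 6 of the 8, against 57.3% of all genes. The receptors had the largest changes of the set, and the ligands changed by less than 1 on the log2 scale. The same 3 higher and 3 lower genes were called without progenitor array 1. With arrays scaled on 14 hybridization controls, spiked transcripts that were brighter on the hESC arrays, 5 members rose and 1 fell. That scaling moved the median change of all genes from 0.04 to 0.52, and median centring of the gene values moved it to -0.15.

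**Figure D1:**
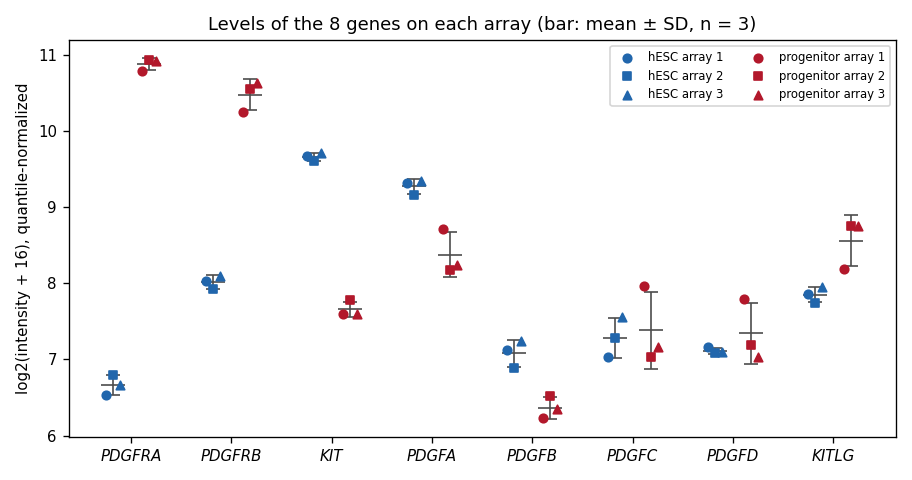
Level of each of the 8 genes, as quantile-normalized log2(intensity + 16), on the 3 hESC arrays (blue) and the 3 progenitor arrays (red), each gene by its brightest probe set, with array number given by the marker shape and bars for mean ± SD. PDGFRA, PDGFRB and KITLG lie higher and KIT, PDGFA and PDGFB lower on all progenitor arrays, while progenitor array 1 lies above the other progenitor arrays for PDGFA, PDGFC and PDGFD and below them for KITLG.

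PDGFRA, the alpha receptor, had the largest change of the set. Its brightest probe set, 203131_at, had deposited intensities of 1711.9, 1879.84 and 1863.31 on progenitor arrays 1 to 3 and of 79.15, 98.57 and 84.06 on hESC arrays 1 to 3. The progenitor arrays lay close together and far above every hESC array. On the log2 scale the level averaged 10.87 ± 0.08 (SD, n = 3) for progenitors and 6.66 ± 0.13 for hESC. The change was 4.21 (SE 0.10), or 18.5-fold on this scale, with an adjusted p = 1.83e-07 in limma. Leaving out any 1 array gave between 4.14 and 4.27.

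PDGFRA had 3 other probe sets, which are dimmer. Probe set 215305_at read 80.85, 123.02 and 115.5 in the progenitors and 51.2, 40.4 and 63.9 in hESC, without overlap, and its change of 0.91 (SE 0.20) passed in the fit over all probe sets (limma adjusted p = 0.00843). Probe sets 1554828_at and 211533_at stayed at or under 18.14 on every array, with changes of -0.31 and -0.13 that did not pass. Without progenitor array 3 the first of these was called lower, at -0.47 (limma adjusted p = 0.0321). The mean over the 4 probe sets rose by 1.17, in place of 4.21, and still passed in limma.

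PDGFRB, the beta receptor, rose as well. Its 1 probe set read 1172.71, 1440.19 and 1515.07 in the progenitors and 242.52, 224.41 and 250.29 in hESC. Every progenitor array was above every hESC array, and progenitor array 1 was the lowest of its group. Log2 levels were 10.47 ± 0.21 (SD, n = 3) and 8.02 ± 0.09, a change of 2.46 (SE 0.12), or 5.48-fold, with an adjusted p = 4.23e-06 in limma. Of 6 mural and smooth muscle markers, RGS5, CSPG4 and ACTA2 rose, by 2.30, 0.88 and 0.84, and CNN1, MYH11 and DES did not pass. CNN1 was called higher under 7 of 17 alternatives, and without progenitor array 1 the count of markers higher was 4. The summed intensity of the 6 markers ran from 5496 to 6427 on progenitor arrays and from 1630 to 2004 on hESC arrays. Its part in the PDGFRB result was not tested.

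KIT fell in the progenitors. Its 1 probe set read 183.98, 206.2 and 178.22 in the progenitors and 809.81, 779.69 and 818.15 in hESC. The groups were far apart, with little spread within each. Log2 levels were 7.66 ± 0.10 (SD, n = 3) and 9.66 ± 0.05, a change of -2.00 (SE 0.09), which is 4.00-fold lower on this scale, with an adjusted p = 2.69e-06 in limma. The fall was called under every alternative that gave a value, from -2.14 with median centring to -1.48 with scaling on hybridization controls. The suffix of this probe set (_s_at) marks probes that can match several transcripts, so KIT had no value when such probe sets were left out.

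Markers of cell types known for KIT were read beside it. Of 4 germ cell markers DAZL and TFAP2C fell, by 0.58 and 0.66, DDX4 stayed at or under 5.95 on every array and NANOS3 at or under 12.8. The call of DAZL was lost under 9 of 16 alternatives, and that of TFAP2C under 1 of 17. Of the 4 blood markers measured, the brightest, MYB, read 299, 81.34 and 92.26 in the progenitors and 101.86 to 123.36 in hESC and did not pass. SPI1 and PTPRC stayed under 15.5 on every array, and HBE1 rose by 0.43 from intensities of 1 to 6.18, a call lost under 9 of 16 alternatives. Of the neural crest and melanoblast markers MITF rose by 1.20 and SOX10 by 0.36, FOXD3 fell by 1.92, and TYR did not pass, at -0.23. The call of SOX10 was lost under 13 of 16 alternatives, and TYR was called lower under 3 of 16. Without progenitor array 1, 1 of the 4 germ cell markers fell and 0 of the 4 blood markers rose. Of the 4 neural crest and melanoblast markers measured, 1 then rose and 2 fell. With scaling on hybridization controls 0 of the germ cell markers fell and 1 rose, and all 4 blood markers measured rose. The fall of KIT went with that of 6 pluripotency markers, among them NANOG, whose summed intensity was 3942 to 4171 on progenitor arrays and 18467 to 22035 on hESC arrays. Their part in it was not tested.

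The ligand PDGFA, the A chain, fell. Its brightest probe set, 205463_s_at, read 412.75, 277.03 and 287.01 in the progenitors and 630.15, 566.21 and 631.15 in hESC. Every progenitor array was below every hESC array, and progenitor array 1 was nearest to hESC. Log2 levels were 8.38 ± 0.29 (SD, n = 3) and 9.27 ± 0.10, a change of -0.90 (SE 0.15) with an adjusted p = 0.00206 in limma, and of -1.07 without progenitor array 1. With scaling on hybridization controls the change was -0.38 and missed the threshold (limma adjusted p = 0.0503). The other probe set, 216867_s_at, read 107.92, 62.92 and 52.41 against 75.86, 76.41 and 132.36, and its groups overlapped, with a change of -0.25 that did not pass.

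PDGFB, the B chain and the ligand of both receptors, was lower on its brightest probe set, 216061_x_at. It read 56.93, 73.52 and 62.6 in the progenitors and 124.31, 105.99 and 131.07 in hESC, without overlap. Log2 levels were 6.36 ± 0.15 (SD, n = 3) and 7.08 ± 0.18, and the change was -0.72 (SE 0.12), with an adjusted p = 0.00221 in limma. The call rests on this 1 probe set, whose suffix (_x_at) marks probes that can match other transcripts. It was lost when such probe sets were left out (-0.27, limma adjusted p = 0.104), on the mean of the 4 probe sets (-0.21, limma adjusted p = 0.0824) and with scaling on hybridization controls (-0.25).

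The other 3 probe sets of PDGFB were dim. Probe set 204200_s_at read 6.73 to 13.85 on progenitor arrays against 12.21 to 21.38 in hESC, and 216055_at read 11.1 to 14.28 against 15.22 to 23.59, with changes of -0.26 and -0.27 that did not pass. Without hESC array 1 the second of these was called lower, at -0.38 (limma adjusted p = 0.0354). Probe set 217112_at read 2.97, 6.21 and 11.15 in the progenitors and 1.54, 1 and 1 in hESC, which is the opposite direction and close to the value 1 at which the table piles up. Its change of 0.41 did not pass in limma (adjusted p = 0.0567). It was called higher without progenitor array 1, at 0.54 (limma adjusted p = 0.0164), and also with a pseudocount of 1, at 1.76, with median centring, with scaling on hybridization controls and with another variance model.

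PDGFC, the C chain, which acts on the alpha receptor once cut, did not pass. Its brightest probe set, 218718_at, read 241.06, 113.41 and 124.59 in the progenitors and 115.76, 140.71 and 166.05 in hESC. In these deposited values progenitor array 1 was above all hESC arrays, and progenitor array 2 was below them by a small margin. The change was 0.09 (SE 0.25, limma adjusted p = 0.797) with all arrays and -0.19 (limma adjusted p = 0.391) without progenitor array 1. The second probe set, 222719_s_at, also read highest on progenitor array 1, at 18.36 against 6.56 and 9.51, with 6.7 to 11.47 in hESC.

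PDGFD, the D chain and a ligand of the beta receptor, showed the same array standing apart. Its brightest probe set, 219304_s_at, read 213.95, 129.41 and 113.35 in the progenitors and 127.27, 122.27 and 118.4 in hESC. The hESC arrays lay within a narrow range, and progenitor array 1 far above it. The change was 0.23 (SE 0.19, limma adjusted p = 0.370), and it was -0.00045 without progenitor array 1. The second probe set, 222860_s_at, read 18.55, 8.73 and 11.49 in the progenitors and 18.21, 21.74 and 20.5 in hESC, in the opposite direction. Its change was -0.26 (limma adjusted p = 0.185), and without progenitor array 1 it was called lower, at -0.40 (limma adjusted p = 0.0275). On their brightest probe sets both PDGFC and PDGFD were called higher when arrays were scaled on hybridization controls, at 0.62 and 0.75.

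KITLG, the ligand of KIT, rose while its receptor fell. Its brightest probe set, 226534_at, read 283.9, 410.74 and 411.49 in the progenitors and 214.91, 196.16 and 223.33 in hESC. The groups did not overlap, and progenitor array 1 was the nearest to hESC. Log2 levels were 8.56 ± 0.33 (SD, n = 3) and 7.85 ± 0.10, a change of 0.71 (SE 0.17) with an adjusted p = 0.00948 in limma, and of 0.90 without progenitor array 1. The other 3 probe sets stayed at or under 21.62 on every array and did not pass, and the mean over the 4 was 0.23 (limma adjusted p = 0.0551).

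Over the 20 probe sets, 4 rose, 3 fell and 13 did not pass. Of all 54613 tested 20.3% rose and 20.0% fell, together 40.2%. Of the 12 that were not the brightest of their gene, 1 passed, that of PDGFRA. Without progenitor array 1, 5 of the 20 rose and 4 fell.

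**Figure D2:**
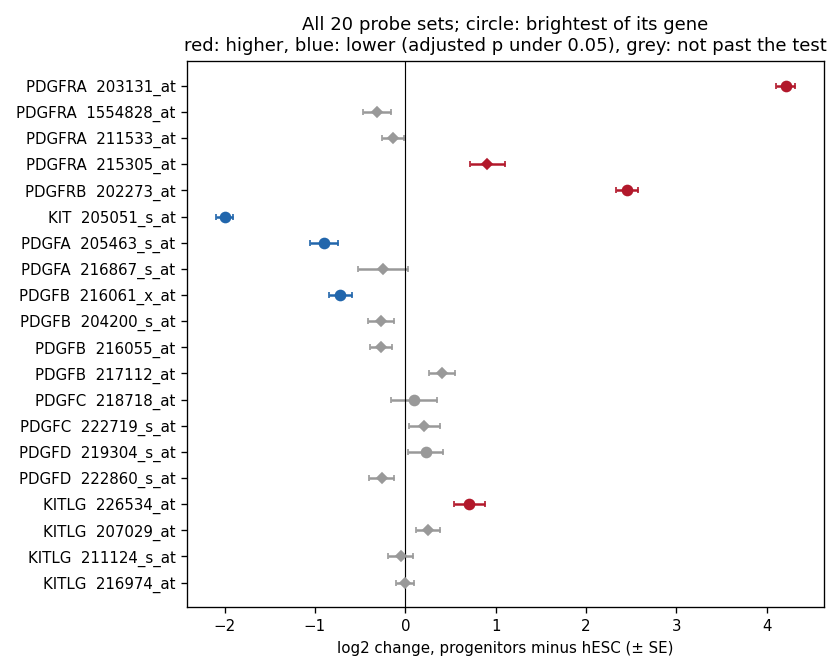
Log2 change, progenitors minus hESC, of each of the 20 probe sets (± SE, 3 arrays per group), with circles for the brightest probe set of a gene and diamonds for the others. The brightest PDGFRA probe set lies at 4.21 and that of KIT at -2.00, while 11 of the 12 diamonds are grey, which means that they did not pass the test.

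**Figure D3:**
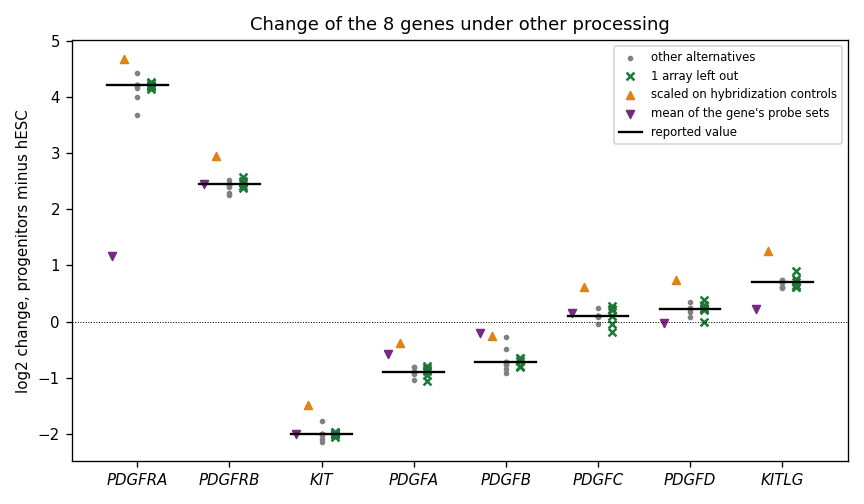
Log2 change of each of the 8 genes as reported (black line), with 1 array left out (green crosses), scaled on hybridization controls (orange triangles), averaged over the probe sets of the gene (purple triangles) and under the other alternatives (grey dots). PDGFRB and KIT stay within 2.26 to 2.96 and -2.14 to -1.48, PDGFRA drops to 1.17 where its probe sets are averaged, and PDGFC and PDGFD have values on both sides of 0.

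The ligands and receptors also differed within the progenitor group. On the log2 scale, progenitor array 1 exceeded the mean of arrays 2 and 3 by 0.86 for PDGFC, 0.68 for PDGFD and 0.50 for PDGFA. The difference was -0.57 for KITLG, -0.35 for PDGFRB and -0.20 for PDGFB, and for PDGFRA and KIT it was -0.13 and -0.09. Differences of at least 0.5 in either direction were found for 4 of the 8 genes and for 6.64% of all genes. Array 1 is 1 array, so this has no replicate.

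Endothelial markers moved with that array. The summed intensity of CDH5, PECAM1, TEK, TIE1, ERG, EMCN and ESAM was 3600 on progenitor array 1, 1189 and 1274 on arrays 2 and 3, and 590.8 to 630.3 on hESC arrays. All 7 read higher on array 1 than arrays 2 and 3 did on average, with a median difference of 1.60. Between the groups CDH5, ERG and TEK rose, by 3.85, 2.36 and 1.38, and PECAM1, TIE1, EMCN and ESAM did not pass. Without progenitor array 1, 3 of the 7 were called higher and 1 lower. EMCN stayed at or under 8.01 on every array. CDH5, the endothelial cadherin, read 1011.99 on array 1 and 101.51 and 121.39 on the others. MYB, a blood progenitor factor, read 299 against 81.34 and 92.26, while SPI1 and PTPRC were at 12.14 and 10.52 on array 1. The part of such cells in the PDGFC, PDGFD, PDGFA and KITLG values was not tested.

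The other genes of the pathway were read from lists by role. Of 6 relatives of these receptors and ligands FLT3LG rose, IL34 and PDGFRL fell, and CSF1, CSF1R and FLT3 did not pass. Among all genes 26.7% rose and 21.2% fell, together 47.9%. PDGFRL, a secreted protein related to PDGF receptors, fell from 186.55 to 214.43 in hESC to 11.83 to 17.69 in the progenitors, with a log2 change of -2.77 (SE 0.11). IL34, a ligand of the CSF1 receptor, fell by 0.82 on a probe set with an ambiguous suffix (_x_at), and it had no value when such probe sets were left out. FLT3LG, the ligand of FLT3, rose by 0.39 from a mean intensity of 10.5, and this call was lost under 7 of 16 alternatives. Those include leaving out progenitor array 1. CSF1, the brightest that did not pass, had a change of -0.03, and 0.50 with a call when scaled on hybridization controls.

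Of 11 genes that cut or capture the ligands 4 rose, 3 fell and 4 did not pass, where 26.7% of all genes rose and 21.2% fell. Their median change was 0.24, against 0.04 over all genes. FURIN, a protease that processes PDGF precursors, rose by 2.38 (SE 0.19), from 68.08 to 85.36 in hESC to 373.98 to 616.28 in the progenitors. ST14 (matriptase), a protease that can activate PDGF-D, fell by 3.22 (SE 0.09), from 369.19 to 412.65 to 23.63 to 29.85. The convertase PCSK5 fell by 1.95, and SPARC, a matrix protein that binds PDGF chains, rose by 0.91. PLAT (tissue plasminogen activator), which activates PDGF-C, read 243.89 on progenitor array 1 and 132.73 and 125.75 on the others, against 97.77 to 142.61 in hESC, and did not pass. PLAU, the urokinase, which can cut PDGF-D, read 533.15 on progenitor array 1 and 313.58 and 298.56 on the others. It had a change of 0.24 that did not pass and of -0.01 without array 1. PLAT was chosen after its values were seen.

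Of 30 signal transducers measured among 40 listed, 18 rose, 3 fell and 9 did not pass, beside 26.7% of all genes higher and 21.2% lower. Their median was 0.37, against 0.04 over all genes, and the others of the list are not analysed here. The split was 13 higher and 5 lower with median centring, and 25 higher and 2 lower with scaling on hybridization controls. The kinase SRC rose by 3.15 (SE 0.12), from 145.13 to 192.69 in hESC to 1486 to 1612 in the progenitors, and the docking protein GAB2 by 2.79 (SE 0.16). The catalytic subunit PIK3CD, best known from leukocytes, fell by 1.85, and STAT3 by 0.94. SHC1, an adaptor and the brightest that did not pass, had a change of -0.03, which was 0.44 with scaling on hybridization controls and -0.43 when its probe sets were averaged, called in limma in each case.

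The genes that act on the receptors themselves were listed as phosphatases, ubiquitin ligases, inhibitors and the co-receptors NRP1 and LRP1. Of 14 measured among 18 listed, 4 rose, 7 fell and 3 did not pass, beside 47.9% of all genes called, 26.7% higher and 21.2% lower. Their median was -0.22, which turned to 0.25 with scaling on hybridization controls and to 0.05 without probe sets matching several transcripts. In the latter setting 11 genes had a value, of which 4 rose, 3 fell and 4 did not pass. NRP1, a co-receptor for VEGF that also binds PDGF, rose by 4.89 (SE 0.16), from 18.02 to 25.24 in hESC to 907.84 to 1324 in the progenitors, and was highest on progenitor array 1. The ubiquitin ligase CBLB rose by 1.13. LRIG1, a membrane protein that promotes breakdown of receptor kinases, fell by 2.49 (SE 0.12). LRP1, an endocytic receptor and PDGFRB partner, fell by 1.02, but a probe set free of the ambiguous suffixes gave 0.05 without a call. CBL did not pass, at -0.13, and its sign turned to 0.33 with scaling on hybridization controls and to 0.17 when its probe sets were averaged.

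**Figure D4:**
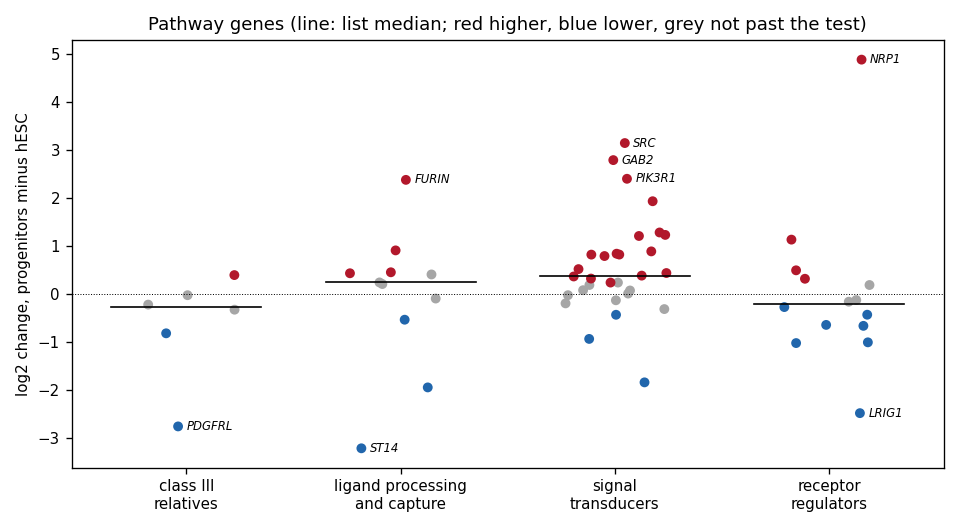
Log2 change, progenitors minus hESC, of each measured gene in the 4 pathway lists, with red for higher, blue for lower and grey for not past the test, a black line at the median of each list, and names at changes over 2 in size. The transducers have a median of 0.37 with SRC at 3.15 at the top, and NRP1 at 4.89 and LRIG1 at -2.49 are the ends of the list of receptor regulators.

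PDGFRA, KIT and the VEGF receptor KDR follow one another on chromosome 4 in the RefSeq annotation. KDR rose by 1.14 (SE 0.14), so the middle gene of the 3, KIT, fell while its neighbours rose. In the stretch from SGCB to CEP135, 17 of 21 protein-coding genes were read here, of which 5 rose, 5 fell and 7 did not pass. PDGFRA and KIT are 2 of these, and 47.9% of all genes were called. SPATA18, ERVMER34-1 and EXOC1L were not in the list and were not looked up, and SRD5A3, which was listed, had no value. The counts thus leave out part of the stretch. CHIC2, a gene near PDGFRA, rose by 1.33 (SE 0.08), and GSX2, which lies between CHIC2 and PDGFRA, had a change of 0.27 that did not pass. RASL11B fell by 2.30 and LNX1 by 1.32, and USP46, at 0.26, did not pass. Of the 15 neighbours 9 rose and 4 fell when arrays were scaled on hybridization controls.

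**Figure D5:**
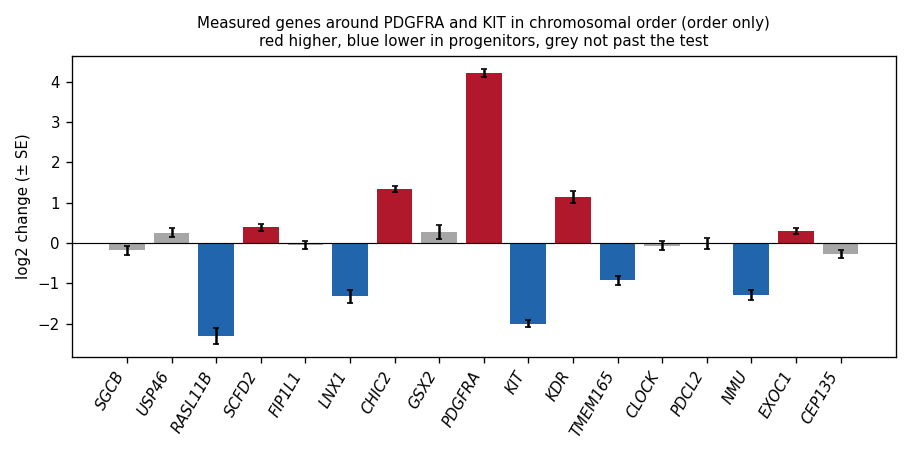
Log2 change, progenitors minus hESC (± SE, 3 arrays per group), of the 17 genes read in the stretch around PDGFRA and KIT. They are placed in their chromosomal order without scale of distance, and genes of the stretch that were not read are left out. PDGFRA at 4.21 and KIT at -2.00 stand side by side, followed by KDR at 1.14.

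The genes with the profile nearest to a member were found from log2 values centred on the mean of each gene, by the root mean square difference over the 6 arrays, among genes past the test. Nearest to PDGFRA were FLRT3, a membrane protein of cell adhesion and FGF signalling, the homeobox gene MEIS1 and the semaphorin SEMA3C, at 0.08, 0.08 and 0.11. They had changes of 4.22, 4.30 and 4.37. Nearest to PDGFRB were the G protein subunit GNG8, the potassium channel subunit KCNMB4 and the vesicle protein VAMP7, at 0.05, 0.07 and 0.07. Nearest to KIT were the long noncoding RNA LINC00665, the metalloreductase STEAP3 and the F-box protein FBXL16, at 0.07, 0.07 and 0.08, with changes of -1.96, -2.07 and -2.02. PDGFC did not pass the test itself, and the restriction to genes past it leaves out profiles without a call. CYB5A, FBXW5 and CPXM1, at 0.25 each, are thus the nearest among called genes alone, and they lost their calls under 8 of 17, 8 of 16 and 10 of 17 alternatives. Likeness over 6 arrays in 2 groups mostly reflects the size of the change.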

How the data were processed

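Transcripts were measured on 6 one-colour arrays, 3 of mesodermal progenitors and 3 of hESC, with biotinylated cRNA made in an amplification step, per the labels' protocols. The authors' deposited values have the range and skew of linear intensity. How probes were summarised, corrected and scaled is not given in the sources used. Of these values 2.15% equal 1 and 0.0058% lie below it.

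Probe sets were named from the platform annotation, with symbols updated by gene identifier for 41043 of the 41097 annotated to 1 symbol. A gene is its brightest probe set. Intensities were converted to log2(intensity + 16) and quantile-normalized, since array medians spanned 0.1495, over the limit of 0.1. Genes, and separately all probe sets but 62 array controls, were tested in limma 3.58.1 with lmFit and eBayes (R 4.3.3), two-sided, with Benjamini-Hochberg adjustment over all of them, calling those whose adjusted p was under 0.05. The model had 2 groups and no covariate. Precision is limited by the number of arrays. Separate cultures per group are not stated in the labels, and p-values then reflect the spread of these samples alone, possibly a technical one.

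The members and lists were chosen with earlier results of these data known. Named genes are the 8 members and, for each list, up to 2 of the largest increases and 2 of the largest decreases past the test without overlap, plus the brightest not past it, the 3 genes most alike to 4 members, and the sort antigens. Markers were named from their lists. Alternatives were pseudocounts of 1 and 64, 3 scalings, a filter on the dimmest 30%, other choices of probe set, another variance model, a replicate block, leaving out each array, and averaging progenitor arrays 2 and 3. Same-numbered arrays did not deviate together (correlations of -0.02, 0.03 and -0.04). A pairing with effects smaller than other differences between arrays would not show in these correlations, so whether the numbers pair samples is unknown. The test was also run on data simulated for this comparison (19775 genes, 50 changed per size). It found 26% of changes of 0.5 (log2), 92% of those of 1, 94% of those of 2 and 100% of those of 4. Changes were far rarer in that simulation than on the arrays, where calls reached 47.9%. The Benjamini-Hochberg cutoff depends on how common changes are, so these rates do not give the sensitivity of the test here. Figures were drawn with matplotlib 3.10.9.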

Additional observations from a re-analysis of the deposited data

How the results depend on the processing

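With 3 arrays a group, small changes of dim probe sets limit what can be read. Of 58 changes followed here, of members, their probe sets and other named genes, 48 to 57 kept their direction and side of the threshold under alternatives that gave all 58, except that scaling on 14 biotin hybridization controls kept 38. The mean of probe sets kept 39 of 46, unambiguous probe sets 29 of 32 and the filter 51 of 51. The cause of the changes below was not tested, except that KIT, PDGFA and PDGFD have no probe set left without the ambiguous suffixes.
With scaling on hybridization controls 12576 genes were higher and 1765 lower, in place of 5278 and 4185, members were 5 higher and 1 lower, and member probe sets 11 higher and 1 lower. With median centring 6436 genes were lower, and increases were 37.3% of calls, against 55.8% as reported and 87.7% with the controls. Without probe sets matching several transcripts 0 of 5 measured members were lower. Leaving out single arrays gave 4398 to 5290 genes higher, 3511 to 4048 lower, 3 to 3 members higher, 3 to 3 lower, 3 to 5 member probe sets higher, 3 to 4 lower.
The replicate block changed no call of a member, with KIT at -2.00, KITLG at 0.71 and PDGFB at -0.72, and took the calls of CYB5A, FBXW5 and CPXM1.
These signs turned, most of them of changes that were not called. With scaling on hybridization controls CSF1 came to 0.50, SHC1 to 0.44, CBL to 0.33, and the dimmer probe sets of KITLG to 0.42 and 0.50, of PDGFA to 0.21, of PDGFB to 0.19 and 0.17, of PDGFD to 0.18 and of PDGFRA to 0.15 and 0.36. With median centring PDGFC came to -0.042 and the dim KITLG probe sets to 0.0084 and 0.086, and 216974_at came to 0.0070 with a pseudocount of 1. On the mean of probe sets PDGFD came to -0.016, CBL to 0.17 and USP46 to -0.079, and LRP1, which was called, to 0.052 without ambiguous probe sets. With progenitor arrays 2 and 3 averaged CSF1 came to 0.0022 and SHC1 to 0.0031. Leaving out 1 array turned PDGFC (-0.19 to 0.27), PDGFD (-0.00045 to 0.38), CSF1 (-0.081 to 0.024), PLAU (-0.013 to 0.38), SHC1 (-0.082 to 0.0094), and the probe sets 211124_s_at and 216974_at of KITLG (-0.17 to 0.034, -0.049 to 0.065) and 216867_s_at of PDGFA (-0.48 to 0.010).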
